A study of Mus musculus with 3 samples.

Results

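Vcan monocytes are lavage cells that carry transcripts of the matrix proteoglycan versican together with markers of blood-derived monocytes. They were chosen cell by cell, from UMI counts (1 UMI is 1 captured transcript molecule), among barcodes in which 200 genes or more were seen and mitochondrial UMIs did not exceed 20%. A member had at least 1 UMI of Vcan and at least 3 UMIs summed over Vcan, Ly6c2 and Plac8, with at most 2 UMIs over C1qa, C1qb and C1qc, at most 1 over Car4, Krt79, Ear2 and Siglecf, and at most 1 over Ccr7 and Fscn1. These limits left 67 of 42888 cells, of which 47 came from the library WT_DMSO, 13 from WT_GW5074 and 7 from KO_DMSO.

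The study gave bleomycin, a drug that injures the lung and leads to fibrosis, into the airways of 3 groups of mice and sampled the airspace by lavage after 14 days. WT_DMSO was wild-type mice given the vehicle DMSO, WT_GW5074 was wild-type mice given GW5074, a small-molecule inhibitor of RAF kinases, and KO_DMSO was Clec7a KO mice given DMSO. Clec7a encodes Dectin-1, a receptor for fungal beta-glucans on myeloid cells. All groups were injured, so the controls carry the injury too, and no uninjured library was analysed here. Per group, lavage cells were combined and sorted on CD11b or CD11c, and each pool gave 1 library of 3' single-cell RNA counts. Every difference below is therefore between 2 pooled libraries, has no replicate check and carries no p-value. Intervals are 95% intervals that cover counting error only.

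Classical monocytes of the mouse are made in the bone marrow, carry Ly6C and the chemokine receptor CCR2, and leave the blood for injured tissue. In the lung they pass through a short-lived state before they become macrophages, which take up lipid and debris and make complement C1q. Versican and fibronectin are matrix proteins of the monocyte stage, and factor XIII A, from F13a1, crosslinks fibrin.

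The rule read Vcan, Ly6c2 and Plac8 directly, so their levels only describe the choice. Vcan (chromosome 13, 89655312 to 89742509, minus strand, mm10) stood at 1054 CPM (counts per 1000000 summed UMIs) in WT_DMSO, 1077 in WT_GW5074 and 843 in KO_DMSO. Ly6c2 (chromosome 15, 75108158 to 75111970, minus strand), a Ly6C gene of classical monocytes, was at 238, 718 and 790 CPM and was found in 17 of 47, 8 of 13 and 5 of 7 members. Plac8 (chromosome 5, 100553725 to 100572245, minus strand), a small cysteine-rich protein of monocytes, was at 339, 539 and 421 CPM. In WT_DMSO, 17 members had neither a Ly6c2 nor a Plac8 UMI and entered on Vcan alone, against 0 of 13 and 0 of 7. At the edge of the rule, 20, 4 and 1 members had a sum of exactly 3, while 37, 6 and 6 cells with Vcan missed it with a sum of 2. Of the members, 36, 11 and 5 had no C1q UMI at all.

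The libraries held 13454, 17792 and 11642 kept cells, in the order WT_DMSO, WT_GW5074 and KO_DMSO, which is used throughout, with median depths of 2438.5, 2276 and 2937 UMIs. The members had median depths of 3211 UMIs (658 to 7996), 1199 (925 to 6776) and 2113 (2065 to 4180), and their summed UMIs came to 159388, 27851 and 18979. The 3 deepest members held 13.9% of these UMIs in WT_DMSO, but 54.7% in WT_GW5074 and 56.0% in KO_DMSO. Between 80 and 154 barcodes were shared by each pair of libraries, and 0 members shared one with a member of another library. The deleted gene was checked first: Clec7a had 30, 14 and 0 UMIs in the members, and 581, 684 and 11.1 CPM in the C1q macrophages of the same libraries, so the library labelled KO_DMSO had the lowest level in both kinds of cell.

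The label held in part. All 20 genes of a classical monocyte list were detected in the members of WT_DMSO, 20 in WT_GW5074 and 19 in KO_DMSO. The granulocyte genes Ly6g, Camp, Ngp and Retnlg had 0 UMIs in every member, as did Siglecf, Cd3e and all 8 mast cell and basophil markers. Other neutrophil markers were present: 11 of 14 were detected in the WT_DMSO members, with 884 UMIs in 40 of 47 cells, Il1r2 in 19, Csf3r in 12 and Cxcr2 in 5. In 1 member of 658 UMIs, 154 UMIs (23.4%) came from this list, and it had 0 UMIs of Ccr2, F13a1, Fn1 and Lyz2. It was not alone: a member of 709 UMIs had 46 S100a8 and 36 S100a9 UMIs, and another, of 993 UMIs, had 34 and 21. Both had 0 UMIs of Ccr2, F13a1 and Fn1, with 3 and 4 of Lyz2. Lymphocyte markers summed to 8, 0 and 3 UMIs over 14 genes, dendritic cell markers to 24, 2 and 1 over 13, and epithelial and red cell markers to 10, 3 and 0 over 13. However, 2 of the markers that named the cells were rare in them: Cd177 was found in 5, 0 and 0 members and Ltb4r1 in 11, 2 and 0. The members are therefore called by the genes of the rule.

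Vcan monocytes made up a larger share of the airspace cells in WT_DMSO than in the other libraries. They were 0.349% of kept cells (exact Clopper-Pearson interval 0.257 to 0.464) in WT_DMSO, 0.0731% (0.0389 to 0.125) in WT_GW5074 and 0.0601% (0.0242 to 0.124) in KO_DMSO. The share was 4.78-fold lower with GW5074 (interval of the ratio 2.54 to 9.63) and 5.81-fold lower in the knockout (2.61 to 15.2), and both comparisons use the same WT_DMSO library. The share is a part of a mixture in which other cells differed as well: neutrophils, gated on their own genes, were 15.1%, 0.607% and 1.43% of kept cells, and C1q macrophages 10.6%, 22.6% and 18.1%. With neutrophils left out of the denominator the share was 5.60-fold and 6.75-fold lower. A share cannot tell fewer monocytes from more of the other cells.

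Depth moved this share. When cells of at least 1000 UMIs were thinned to 1000 before the rule was applied, 8, 9 and 2 cells remained. They were 0.0803%, 0.0571% and 0.0187% of the 9960, 15756 and 10676 cells of that depth, and the intervals of all 3 libraries overlapped. The 3494, 2036 and 966 shallower kept cells were left out of these shares. Dropping the minimum of 3 UMIs, which was tried after seeing the data, gave 223, 52 and 35 cells with any Vcan UMI, or 1.66%, 0.292% and 0.301%. After thinning, the same wider set held 106, 44 and 29 cells, or 1.06%, 0.279% and 0.272% of the cells of at least 1000 UMIs. The wider set of WT_DMSO also held many neutrophil transcripts before thinning, with S100a8 in 82.5% of its 223 cells (8043 CPM), Cxcr2 in 21.5% and Ccr2 in 43.5%, and their part in its share was not tested. In each of these 4 settings WT_DMSO was above KO_DMSO.

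**Figure D1:**
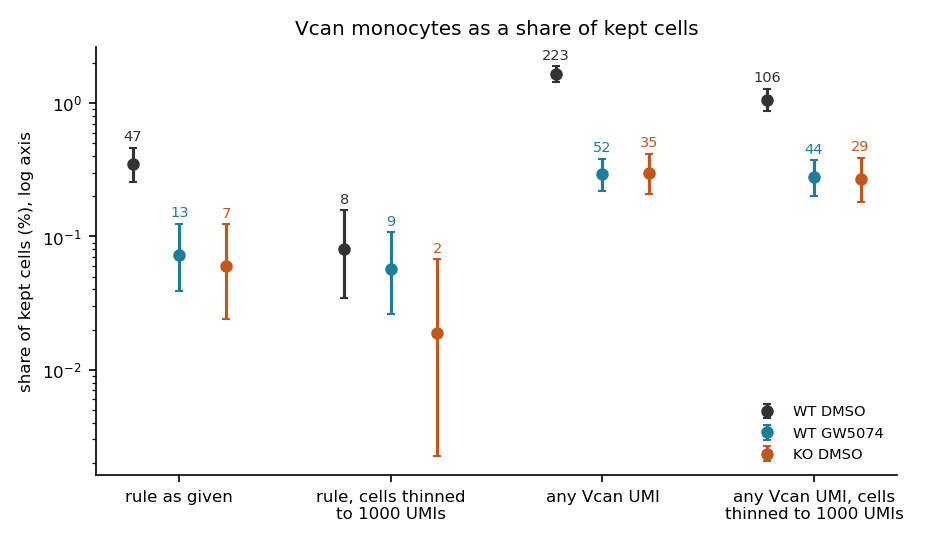
Share of kept cells (%, log axis) that passed the rule in each library, under the rule as given, after thinning to 1000 UMIs, for any cell with a Vcan UMI, and for that wider set after thinning. The 2 settings with thinning use only kept cells of at least 1000 UMIs. Points are libraries with exact 95% Clopper-Pearson intervals and the number of cells above each. WT_DMSO lies at 0.349% under the rule and 1.66% in the wider set, above both other libraries, while thinning under the full rule brings it to 0.0803% beside 0.0571% for WT_GW5074.

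Ccr2, F13a1 and Fn1 were detected in the members of each library. Ccr2 (chromosome 9, 124101950 to 124113557, plus strand), the receptor that draws monocytes out of marrow and blood, was at 922, 1005 and 1001 CPM and was found in 36 of 47, 10 of 13 and 6 of 7 members. The shares with a Ccr2 UMI were 76.6%, 76.9% and 85.7%, against 13.8%, 12.4% and 12.1% of lymphocytes in the same libraries, whose median depth was lower (1294 UMIs in WT_DMSO). F13a1 (chromosome 13, 36867178 to 37050244, minus strand) was at 678, 1005 and 685 CPM. Fn1, which encodes fibronectin, was at 3658, 3339 and 2424 CPM and was found in 44, 12 and 6 members. None of these passed 2-fold between libraries over all members. Without the 3 deepest members of each library, Ccr2 was at 991 CPM in WT_DMSO and 2062 CPM in WT_GW5074, past 2-fold (log2 1.06), and F13a1 at 772 and 1269 CPM.

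Set against C1q macrophages of the same library, the members had more Ccr2, F13a1, Ifitm3 and Itgam and less Spp1, Apoe and Timp2. This is a description, since the rule itself keeps the 2 kinds of cell apart. Ccr2 was 2.40-, 3.05- and 4.25-fold higher in the members, and F13a1 5.42-, 9.95- and 7.64-fold. Ifitm3, an antiviral membrane protein, had the largest ratio that held in every library, at 10.0-, 10.9- and 17.1-fold, from 728, 934 and 1791 CPM in the members. Itgam, the CD11b chain of the sort, was 2.54-, 4.24- and 5.74-fold higher, and the syndecan Sdc4 7.88-, 7.24- and 11.2-fold. Ranked by the smallest of the 3 ratios, out of 2032 genes at 50 CPM or more in every library, the highest also included Gpr141, Plekhg3, Slfn1, Slc39a14, Zfyve9, Avl9, Oasl2, Tmem243, Lmnb1 and Atp8b4. In the members of KO_DMSO 1 UMI is 52.7 CPM, and in those of WT_GW5074 2 UMIs are 71.8 CPM. A gene could therefore enter this ranking on 1 or 2 UMIs in these libraries, and no interval is given for the ranks.

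In the other direction, Spp1, which encodes the matrix protein osteopontin, stood at 0.21, 0.42 and 0.32 of its level in C1q macrophages. Apoe, a lipid carrier, stood at 0.21, 0.50 and 0.31, and the protease inhibitor Timp2 at 0.14, 0.15 and 0.20. The lysozyme gene Lyz2 was at 0.35, 0.74 and 0.70 of the macrophage level, and Fabp5, a fatty acid carrier, at 0.10, 0.95 and 0.85. Most Spp1, Apoe and Fabp5 UMIs of WT_GW5074 lay in its 3 deepest members, and the other 10 had Spp1 at 793, Apoe at 1586 and Fabp5 at 317 CPM. Nonclassical monocyte genes, which include Nr4a1 and Cx3cr1, summed to 414, 395 and 369 CPM in the members, below the 851, 839 and 726 CPM of the macrophages.

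**Figure D2:**
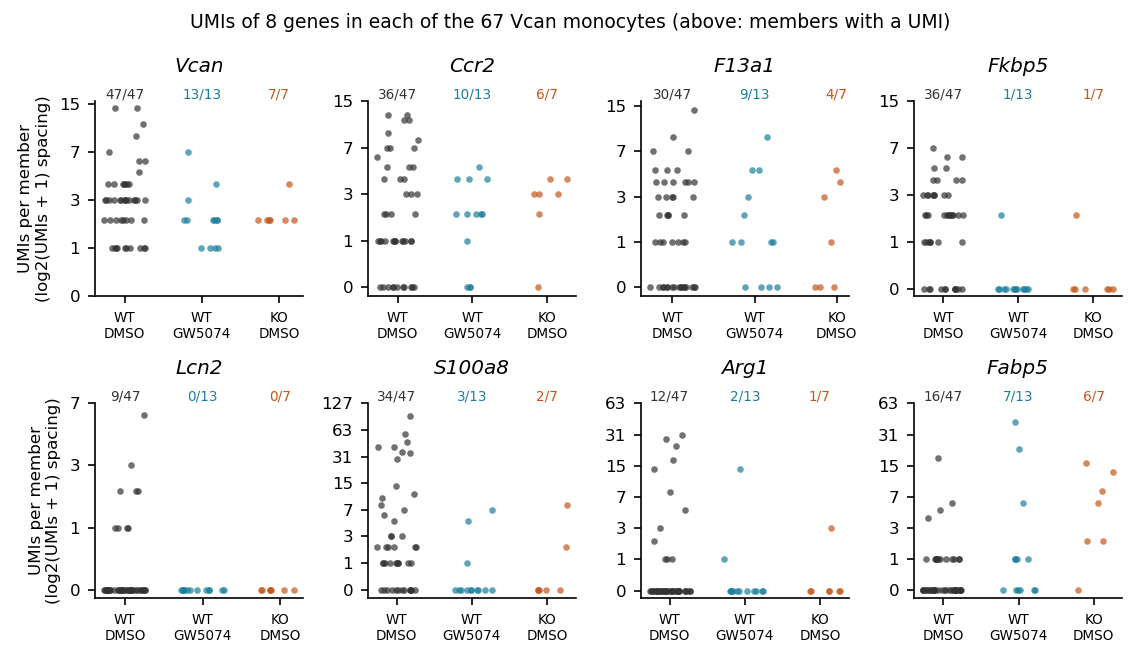
UMIs per member of Vcan, Ccr2, F13a1, Fkbp5, Lcn2, S100a8, Arg1 and Fabp5 in each library, 1 point per cell, with the number of members that had a UMI above each library. Ccr2 was found in 36 of 47, 10 of 13 and 6 of 7 members, while Lcn2 was found only among the WT_DMSO members (9 of 47) and Fkbp5 in 36, 1 and 1.

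Lcn2, Cd177 and Arg1 were each carried by a minority of the WT_DMSO members. Lcn2 (chromosome 2, 32384633 to 32388252, minus strand) encodes lipocalin-2, an iron-siderophore trap stored in neutrophil granules. It had 19 UMIs in 9 of 47 members of WT_DMSO (119 CPM) and 0 UMIs in the other libraries. A count of 0 allows up to 23.1% of the 13 and 42.9% of the 7 members to have a UMI at this depth, which limits members with a UMI and not members that express the gene. Lymphocytes of WT_DMSO, which should lack the gene, had an Lcn2 UMI in 2.61% of cells, C1q macrophages in 11.4% and neutrophils in 33.8%. The Lcn2 level of all these cells followed the library: 46.7, 0.653 and 0.777 CPM in C1q macrophages and 458, 80.8 and 66.6 CPM in neutrophils. A difference in Lcn2 between the members of the libraries was not detectable at this number of members. In the wider set with any Vcan UMI, Lcn2 was found in 57 of 223 WT_DMSO cells and in 0 of 52 and 0 of 35, at least 7.91-fold and 6.38-fold lower.

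Cd177 (chromosome 7, 24743983 to 24760311, minus strand), a surface protein of neutrophils, had 5, 0 and 0 UMIs. Its 31.4 CPM in the WT_DMSO members compares with 19.7 CPM in C1q macrophages and 176 CPM in neutrophils of that library, and its detection, in 5 of 47 members (10.6%, interval 3.55 to 23.1), overlapped that of the macrophages (6.01%, interval 4.84 to 7.37).

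Neutrophil transcripts were found in all 6 kinds of WT_DMSO cell that were gated, and Csf3r and Cd177 stood in like proportion to S100a8 in them. S100a9 ranged from 49.9 UMIs per 100 S100a8 UMIs in resident alveolar macrophages (47.2 to 52.7) to 63.3 in neutrophils (62.5 to 64.2). S100a8 and S100a9 encode the calprotectin chains, the most abundant neutrophil proteins. Per 100 S100a8 UMIs, S100a9 counted 59.5 UMIs in the members, 56.6 in C1q macrophages, 63.3 in neutrophils and 59.8 in lymphocytes. Csf3r, the receptor for the neutrophil growth factor G-CSF, counted 5.17, 4.92, 4.75 and 3.94, and Cd177 1.08, 0.93, 0.76 and 1.16. Other neutrophil genes did not keep one proportion: Retnlg counted 0 in the members (up to 0.798) against 1.79 in neutrophils, Il1r2 ranged from 5.32 to 11.0 over the 6 kinds, and Cxcr2 counted 0.46 in lymphocytes against 2.43 in neutrophils. Lcn2 counted 4.09 in the members (2.44 to 6.47) against 2.20 in C1q macrophages (1.95 to 2.47) and 1.98 in neutrophils (1.87 to 2.11), so the members' interval touches that of the macrophages at its edge. Ltb4r1, the leukotriene B4 receptor, counted 3.23 in the members (1.79 to 5.39) against 0.65, 0.25 and 1.04, the largest ratio of the members to the other cells among the 6 genes plotted. These proportions are those of WT_DMSO. In WT_GW5074, S100a9 counted 35.9 in C1q macrophages and 60.8 in neutrophils, and Csf3r 19.3 and 11.0.

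**Figure D3:**
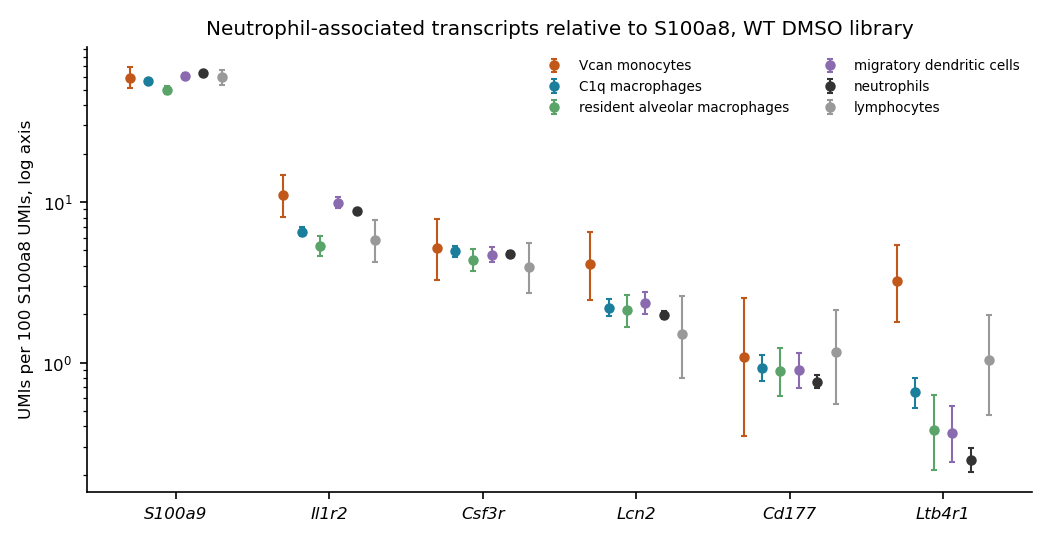
UMIs per 100 S100a8 UMIs of S100a9, Il1r2, Csf3r, Lcn2, Cd177 and Ltb4r1 in 6 kinds of cell of WT_DMSO, with 95% intervals. Csf3r and Cd177 stand at like values in the members and the other cells, and Ltb4r1 stands higher in the members (3.23) than in neutrophils (0.25). S100a9 stands at 59.5 in the members, between resident alveolar macrophages (49.9) and neutrophils (63.3).

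The WT_DMSO members divided by these transcripts. A UMI of Il1r2, Cxcr2, Hdc or Retnlg, 4 neutrophil genes, was found in 19 of 47 members, against 0 of 13 and 0 of 7 elsewhere and 30.9% of the C1q macrophages of WT_DMSO. All 19 carried Il1r2, the decoy receptor for interleukin 1. The 19 held all 19 Lcn2 UMIs, 403 of 464 S100a8 UMIs and 269 of 276 S100a9 UMIs. S100a8 reached 6949 CPM in the 19 and 602 CPM in the other 28 members, 11.6-fold higher (8.81 to 15.4). The same division of C1q macrophages, into 442 and 988 cells, gave 13.7-fold for Lcn2 and 8.97-fold for S100a8.

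The 19 members also had more of some monocyte genes than the 28, and the values in the divided macrophages stand beside them. Ccr2 was at 1483 CPM in the 19 and 602 CPM in the 28 (2.46-fold, 1.76 to 3.48), but 0.788-fold in the divided macrophages. F13a1 was at 1017 and 483 CPM (2.11-fold, 1.42 to 3.14) against 1.09-fold, and Ifitm3 at 1104 and 513 CPM (2.15-fold, 1.47 to 3.16) against 1.05-fold. The macrophage genes went the other way in the members: Spp1 was at 741 and 2692 CPM (0.28-fold) and Fabp5 at 52 and 414 CPM (0.12-fold), against 0.925- and 1.07-fold. Ltb4r1 had 2 UMIs in the 19 members and 13 in the 28. The genes that divide these cells were picked after their values were known, and whether the neutrophil transcripts were made in the members was not tested.

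The members with Lcn2 differed in their S100a8 counts. Of the 9 Lcn2 members, 3 had at most 2 S100a8 UMIs, and these held 9 of the 19 Lcn2 UMIs, with 11 to 12 Ccr2 UMIs and 2 to 14 F13a1 UMIs each at depths of 3545 to 7996. The other 6 had 29 to 92 S100a8 UMIs and held 10 Lcn2 UMIs, at depths of 658 to 5899, with 0 to 11 Ccr2 UMIs and 0 to 5 F13a1 UMIs. This division was also made after the values were seen.

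**Figure D4:**
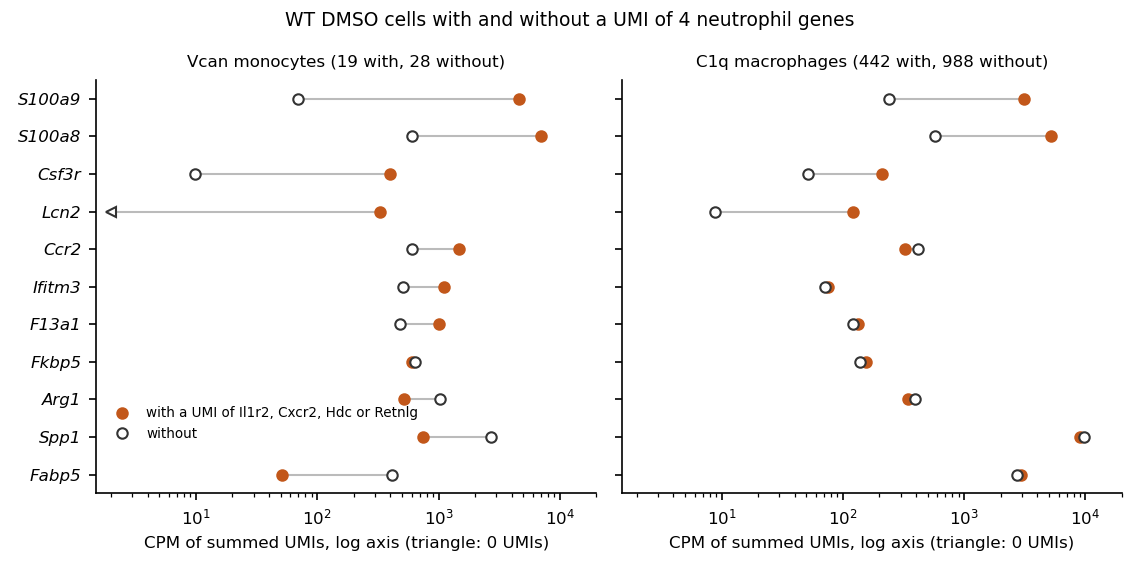
Levels (CPM, log axis) in WT_DMSO cells with and without a UMI of Il1r2, Cxcr2, Hdc or Retnlg, for Vcan monocytes (19 and 28 cells) and C1q macrophages (442 and 988 cells). S100a8 and Lcn2 are higher in the first kind in both, while Ccr2 is higher among the Vcan monocytes (1483 against 602 CPM) and 0.788-fold among the macrophages, and Spp1 and Fabp5 are lower among the Vcan monocytes.

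Before thinning, Ltb4r1 (chromosome 14, 55765962 to 55768494, plus strand) was found in a larger share of WT_DMSO members than of macrophages, neutrophils or lymphocytes. It had 15, 2 and 0 UMIs, or 94.1, 71.8 and 0 CPM, in 11 of 47, 2 of 13 and 0 of 7 members. This was 6.80-fold (3.65 to 11.9) and 12.4-fold (1.47 to 46.4) the level in C1q macrophages of the first 2 libraries. It was found in 23.4% of WT_DMSO members, against 5.24% of macrophages, 6.33% of neutrophils and 1.90% of lymphocytes. Median depths differed, at 3211, 3790, 701 and 1294 UMIs in that order. In WT_DMSO cells thinned to 1000 UMIs, the shares were 14.0% of members (5.30 to 27.9) and 5.76% of neutrophils (3.97 to 8.03). These intervals overlapped. Macrophages, at 2.23% (1.52 to 3.14), and lymphocytes, at 0.984% (0.203 to 2.85), stayed below the members' interval.

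Arg1 (chromosome 10, 24915221 to 24927484, minus strand) encodes arginase 1, which turns arginine into ornithine in alternatively activated macrophages. It had 135, 15 and 3 UMIs, or 847, 539 and 158 CPM, but in 12, 2 and 1 members. In WT_DMSO 5 cells held 114 of the 135 UMIs, in WT_GW5074 1 cell held 14 of 15, and in KO_DMSO 1 cell held all 3. Arg1 differed in C1q macrophages in the same order, at 374, 147 and 92.0 CPM. Before thinning, 35.2% of WT_DMSO macrophages had a UMI against 25.5% of members and 2.55% of neutrophils, at unequal depths. After thinning, the WT_DMSO shares were 18.5% of macrophages (16.5 to 20.7), 20.9% of members (10.0 to 36.0) and 2.88% of neutrophils (1.65 to 4.63). The intervals of macrophages and members overlapped. In the members, Arg1 was 1.57-fold lower with GW5074 (0.92 to 2.89) and 5.36-fold lower in the knockout (1.79 to 26.3). The latter interval does not cover the spread between cells. In the wider set with any Vcan UMI it was at 470, 236 and 444 CPM, so the knockout difference was 1.06-fold there. Arg1 and Lcn2 were seen together in 2 members, whereas 10 of the 12 Arg1 members had Spp1.

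The WT_DMSO members without a Ly6c2 or Plac8 UMI were deeper cells with less F13a1, Thbs1 and Ccl2. Their median depth was 4415 UMIs for 17 cells, against 3011.5 for the 30 with such a UMI, a split chosen after seeing the data. F13a1 was at 384 CPM without and 881 CPM with (2.29-fold lower), and the adhesive glycoprotein Thbs1 at 46.1 and 361 CPM (7.83-fold lower). Thbs1 was found in 2 of the 17 and 9 of the 30 cells. Ccl2, the CCR2 ligand, had 0 UMIs without and 35 with, at least 8.06-fold lower. These 35 UMIs lay in 7 of the 30 cells, and 5 cells held 32 of them. Higher without were the MHC class II gene H2-Eb1, at 660 against 191 CPM (3.46-fold), and the lipase Lpl, at 645 against 180 CPM (3.58-fold). H2-Eb1 was found in 7 of the 17 and 4 of the 30 cells. The protease inhibitor Slpi was at 583 against 53.0 CPM, but its UMIs came from 3 of the 17 cells. Ccr2 was at 599 and 1146 CPM, and 13 of the 17 cells carried it. Some monocyte genes were not lower without: Fn1 was at 3900 and 3490 CPM, Cd14 at 322 and 212, and S100a4 at 5144 and 3183. Ifitm3, at 522 and 870 CPM, and Chil3, at 1628 and 4679 CPM, were lower without.

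Fkbp5, Klf9 and Tsc22d3, which glucocorticoids induce, were lower in the members of both other libraries. Fkbp5 (chromosome 17, 28399094 to 28517527, minus strand), a chaperone partner of the glucocorticoid receptor, had 100 UMIs in 36 of 47 WT_DMSO members, 2 UMIs in 1 of 13 WT_GW5074 members and 2 UMIs in 1 of 7 KO_DMSO members. These counts are 627, 71.8 and 105 CPM, or 8.74-fold lower with GW5074 (2.36 to 73.1) and 5.95-fold lower in the knockout (1.61 to 49.8). In cells thinned to 1000 UMIs, Fkbp5 was found in 53.5% (37.7 to 68.8), 9.1% (0.230 to 41.3) and 14.3% (0.361 to 57.9) of members. At this number of members the intervals of both other libraries overlapped that of WT_DMSO. Klf9, a transcription factor, was found in 24, 1 and 1 members, and Tsc22d3, the leucine zipper GILZ, in 34, 2 and 1. In the wider set with any Vcan UMI, whose WT_DMSO cells had more S100a9 than the members (4903 against 1732 CPM) and so are another mix, Fkbp5 was at 463, 32.6 and 101 CPM, 14.2-fold (5.48 to 52.6) and 4.58-fold (2.45 to 9.68) lower.

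This difference was not restricted to the members. Fkbp5 was at 145, 44.7 and 93.4 CPM in C1q macrophages and at 397, 60.6 and 92.2 CPM in neutrophils, and a UMI was found in 14.96%, 6.74% and 7.62% of lymphocytes. In WT_DMSO the members were 4.33-fold above the macrophages (3.48 to 5.33). Fkbp5 did not follow the neutrophil transcripts within WT_DMSO: it was at 604 CPM in the 19 members with one and 641 CPM in the 28 without. The whole list of 16 glucocorticoid-induced genes summed to 4204, 1975 and 2318 CPM, and not all of its members differed alike: Alox5ap, the 5-lipoxygenase activating protein, was at 1023, 718 and 1159 CPM, and the phosphatase Dusp1 at 289, 35.9 and 263 CPM. The summed level was 2.13-fold lower with GW5074 (1.62 to 2.86) and 1.81-fold lower in the knockout (1.34 to 2.52). Fkbp5, Klf9 and Tsc22d3 fell below the count needed for the genome-wide comparisons that follow.

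GW5074 members were compared with WT_DMSO members over 188 genes with at least 20 expected UMIs in the smaller sum. Of these, 21 differed at least 2-fold (11.2%), 15 higher (7.98%) and 6 lower (3.19%), and the median log2 ratio over all 188 was -0.04. A difference of this size in a gene of the members is read against those shares.

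The 6 genes that were lower with GW5074 were S100a9, S100a8, Srgn, Sh3bgrl3, Cst3 and Ptma. S100a9 was at 1732 CPM in WT_DMSO, with 276 UMIs in 22 of 47 members, and at 0 in the 13 members of WT_GW5074, at least 16.1-fold lower. S100a8 had 2911 CPM in 34 members and 467 CPM in 3 members, 6.24-fold lower (3.61 to 11.8). S100a8 and S100a9 UMIs were found in each kind of cell gated in WT_DMSO, and S100a8 levels in C1q macrophages were 2123 and 265 CPM. The proteoglycan Srgn, which packs granules, was at 1556 and 610 CPM (2.55-fold lower), the protease inhibitor Cst3 at 2560 and 1257, Sh3bgrl3 at 1732 and 826, and Ptma at 1079 and 539. Without the 3 deepest members of each library Srgn was at 1420 and 1189 CPM, short of 2-fold.

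Short of 2-fold, Chil3, a chitinase-like protein of macrophages and neutrophils, was at 3432 and 1831 CPM, S100a4 at 3984 and 2118, Gda at 1035 and 539, and the invariant chain Cd74 at 1531 and 826. Atp5l and S100a6 closed the list of the 12 lowest.

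The 3 deepest cells held most UMIs of several genes that were higher with GW5074. Fabp5 (chromosome 3, 10012548 to 10016607, plus strand) was at 282 CPM in WT_DMSO, in 16 of 47 members, and at 2621 CPM in WT_GW5074, in 7 of 13, which is 9.28-fold higher (6.32 to 13.8). Its 73 UMIs lay almost wholly in the 3 deepest of the 13 members, which held 69. Without the 3 deepest members of each library, a comparison added after seeing the data, Fabp5 was at 277 CPM in WT_DMSO and 317 CPM in WT_GW5074. The same 3 cells held 103 of 113 Spp1 UMIs, 116 of 136 Apoe UMIs, 262 of 290 Ftl1 UMIs and all 13 S100a8 UMIs.

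Of the other higher genes, the cathepsin Ctsd was at 1324 and 4775 CPM (3.61-fold), Ctss at 3068 and 7612 (2.48-fold), and Lyz2 at 8533 and 22046 (2.58-fold). The chemokine Ccl9 was at 301 and 1185 CPM (3.93-fold) and Ccl6 at 1468 and 4596 (3.13-fold). Lgals1, a galectin, was at 314 and 1221 CPM, Tmsb10 at 1085 and 2908, Wfdc17 at 1318 and 3519, and the ferritin chains Fth1 at 7824 and 18707 and Ftl1 at 4812 and 10413. Without the 3 deepest members the direction turned for Wfdc17 (log2 -0.89), Apoe (-0.40), Fth1 (-0.09), Ftl1 (-0.77), Ctsb (-0.11) and Spp1 (-1.15), and Lyz2 was left at 0.28 and Ctsd at 0.72. Ccl9 and Tmsb10 stayed past 2-fold in that comparison, at 284 and 872 CPM and at 1063 and 2141 CPM. Of 78 genes that could then be compared, 6 passed 2-fold, in place of 21 of 188.

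The other 10 members of WT_GW5074 had more Ccr2, F13a1 and Thbs1 than the 3 deepest. Ccr2 was at 2062 CPM in them and found in 9 of 10, F13a1 was at 1269 CPM, and Thbs1 at 952 CPM. The 3 deepest had these at 131, 787 and 131 CPM. Other genes of the monocyte were not lower in the 3 deepest, with Fn1 at 3543 CPM against 3093 and Ly6c2, a gene of the rule, at 787 against 634.

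The knockout members were compared over 133 genes, of which 24 differed at least 2-fold (18%), 13 higher (9.77%) and 11 lower (8.27%), with a median log2 ratio of -0.10. The sums come from 7 cells, and without the 3 deepest members of each library 10 of 41 genes passed.

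Chil3 had the lowest ratio of the 133 genes compared in the knockout members. It was at 3432 CPM in WT_DMSO, in 34 of 47 members, and at 263 CPM in KO_DMSO, with 5 UMIs in 2 of 7 members, 13.03-fold lower (5.55 to 40.3). Without the 3 deepest members of each library it was at 3817 CPM in WT_DMSO and 479 CPM in KO_DMSO, and in the wider set with any Vcan UMI it was 2.60-fold lower (2.22 to 3.07). In C1q macrophages Chil3 was at 1311 and 474 CPM, and in neutrophils at 4590 and 717. S100a8 had 527 CPM in the knockout members, 5.53-fold lower (2.98 to 11.6), and S100a9 at 0, at least 10.95-fold lower. The calcium-binding proteins S100a4 and S100a6 were at 3984 and 1844 CPM (2.16-fold lower) and at 6236 and 3056 CPM (2.04-fold lower), and Crip1, a LIM protein, at 4950 and 2002 CPM (2.47-fold lower). S100a6 turned to 0.13 (log2) when the rule was applied after thinning, which leaves 2 knockout cells. Sem1, Fn1 and Sh3bgrl3 made up the rest of the 8 lowest and were short of 2-fold.

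Fabp5 had the highest ratio of the 133 genes in the knockout members. It was at 2476 CPM in 6 of 7 cells, 8.77-fold above WT_DMSO (5.70 to 13.5). Unlike in WT_GW5074, it did not rest on the deepest cells: the other 4 members had it at 2154 CPM, and all 4 carried it. The cathepsin Ctsb was at 722 CPM in WT_DMSO and 2318 CPM in KO_DMSO, where all 7 members carried it (3.21-fold higher, 2.22 to 4.58). Lyz2 was at 29243 CPM (3.43-fold higher), Ctss at 7798 (2.54-fold), Ftl1 at 11486 (2.39-fold) and Ctsd at 2898 (2.19-fold). The MHC class I genes H2-D1, at 885 and 2108 CPM, and B2m, at 1399 and 3109 CPM, were 2.38- and 2.22-fold higher, and H2-D1 was found in 7 of 7 members. The lysozyme, Ctss and ferritin values leaned on the deepest cells, and without these they were at 8559 and 10892 CPM, 3016 and 4189 CPM, and 3788 and 4668 CPM. Ctsd turned to -0.80 (log2) without the 3 deepest members and to -2.07 when the rule was applied after thinning, where B2m turned to -0.96.

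**Figure D5:**
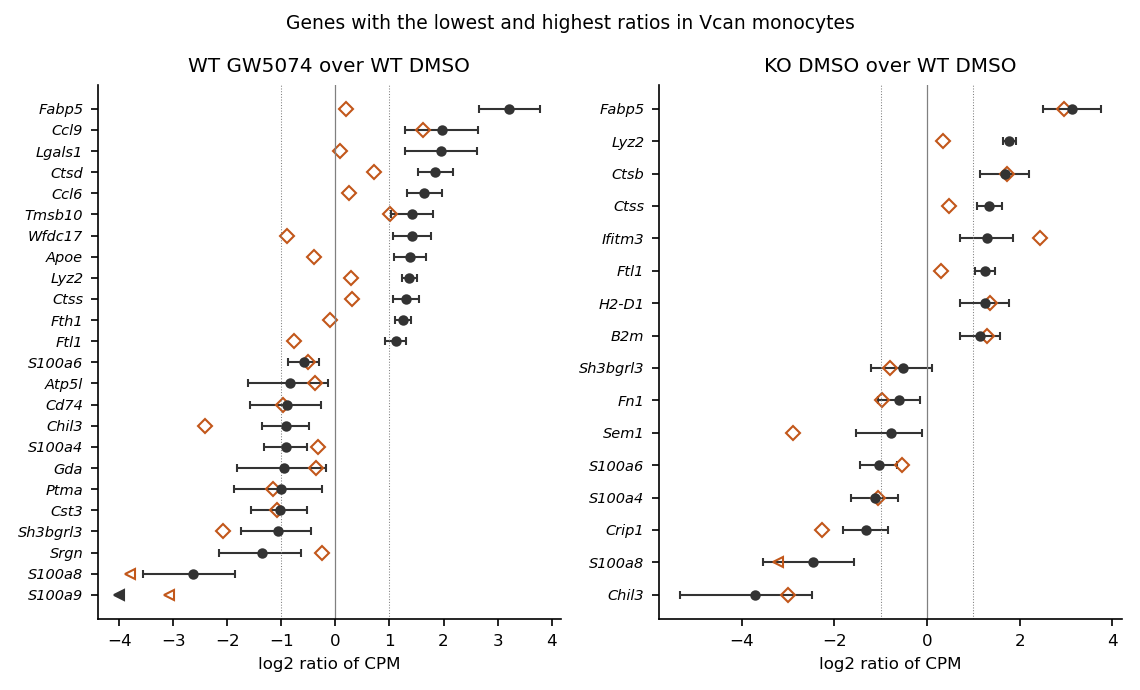
Log2 ratio to WT_DMSO of the named genes for WT_GW5074 (left) and KO_DMSO (right). Filled points are all members with 95% counting intervals, filled triangles are bounds for genes at 0 UMIs, and open diamonds or triangles are without the 3 deepest members of each library. With GW5074, Fabp5 goes from 3.21 to 0.20 without those cells, and in the knockout it stays near its value, 3.13 and 2.96.

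Interferon-induced genes were high in 1 knockout cell. The 24 type I interferon-induced genes summed to 1456, 2047 and 10591 CPM, with 21 of 24 detected in KO_DMSO. Of the 201 UMIs in KO_DMSO, 148 came from a single member of 2094 UMIs, 7.07% of its transcripts. That cell held all 37 UMIs of the antiviral enzyme Rsad2, all 26 of the chemokine Cxcl10, 23 of 26 of Ccl4, 19 of 28 of Ccl5 and 11 of 19 of Ccl2. Without it the list stood at 3139 CPM in KO_DMSO, and at 1187 CPM in WT_DMSO without its own highest cell. Ifitm3, at 728 and 1791 CPM, was 2.46-fold higher (1.63 to 3.64), with 14 of its 34 UMIs in that cell. Its ratio turned to -0.65 (log2) in the wider set after thinning. Ccl2 was at 220, 71.8 and 1001 CPM, in 7, 1 and 3 members.

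Clec7a and the genes of the RAF-MEK-ERK cascade had few counts in the members. Clec7a was at 188 CPM in 18 of 47 WT_DMSO members and 503 CPM in 5 of 13 WT_GW5074 members, 2.67-fold higher (1.31 to 5.19), and at 0 in KO_DMSO. In WT_GW5074 1 cell held 7 of the 14 UMIs, and without the highest cell of each library the levels were 171 and 285 CPM. All 14 genes of the RAF-MEK-ERK kinase list were detected in WT_DMSO and in WT_GW5074 and 10 in KO_DMSO, and they summed to 1267, 1580 and 1001 CPM. The 22 MEK-ERK target and immediate early genes summed to 2265, 1795 and 1212 CPM, 1.26-fold lower with GW5074 (0.94 to 1.73) and 1.87-fold lower in the knockout (1.23 to 2.99). Egr1, an immediate early factor, had 33, 0 and 1 UMIs. The 18 Dectin-1 signalling genes summed to 4856, 5817 and 4900 CPM, with the shared adaptor Fcer1g the largest.

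Gene groups are given by their summed level and by the count of members past 2-fold, to be read against 11.2% and 18% of all compared genes. Several macrophage lists, which share genes, had higher sums in both other libraries. With GW5074, Fabp5, Spp1, Apoe, Ctsb and Ctsd of these lists did not stay 2-fold higher without the 3 deepest members. Of the scar macrophage genes, 6 were compared: 5 were higher with GW5074 (median log2 ratio 1.21) and 3 in the knockout (1.02), and the sums were 10308, 22441 and 19811 CPM against 39421, 43561 and 39759 CPM in C1q macrophages. Of the monocyte to macrophage maturation genes, 4 were compared (Apoe, Ctsb, Ctsd and Fabp5), and all 4 are also among the 6 scar macrophage genes. Of these, 4 were higher with GW5074 and 3 in the knockout, and the whole list summed to 8476, 18491 and 17546 CPM. Cholesterol and lipid genes summed to 2961, 6212 and 6744 CPM, of which Fabp5 alone was 42.2% in WT_GW5074. The NRF2 and oxidative stress list, in which ferritin is the largest part, summed to 18364, 35080 and 26714 CPM. In WT_GW5074 1 cell held 537 of its 977 UMIs, and without that cell the sum was 20878 CPM.

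Of the monocyte groups, the classical list had sums closer to each other once its largest gene was set aside. The classical monocyte list summed to 21608, 34864 and 40940 CPM, but Lyz2 was 39.5%, 63.2% and 71.4% of it, and without Lyz2 the sums were 13075, 12818 and 11697. Chemoattractant receptors summed to 2089, 2477 and 2529 CPM, with Ccr2 the largest, and adhesion and extravasation genes to 3187, 3806 and 3688, with the hyaluronan receptor Cd44 the largest. Coagulation and fibrinolysis genes, led by F13a1, summed to 1669, 2190 and 2055 CPM, and matrix and protease genes to 9518, 12603 and 8167. Myeloid transcription factors summed to 3921, 4165 and 7166 CPM, and growth factors and their receptors to 1826, 2442 and 1791.

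Neutrophil markers and alternative activation genes had lower sums in both other libraries. Neutrophil markers summed to 5546, 682 and 1317 CPM, against 43878, 17692 and 25762 CPM in neutrophils and 3949, 642 and 684 CPM in C1q macrophages. The neutrophil granule list summed to 16250, 26965 and 32562 CPM, of which Lyz2 was 52.5%, 81.8% and 89.8%. Alternative activation genes summed to 9097, 6607 and 3319 CPM, carried by Fn1 and Chil3. Resident alveolar macrophage markers outside the rule summed to 3576, 2083 and 580 CPM, of which Chil3 was 96.0%, 87.9% and 45.5%.

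The chemokine and NF-kB lists had higher sums in the knockout members, with 49.4% and 58.6% of their UMIs in the interferon cell. Chemokines summed to 2390, 6140 and 8957 CPM. In WT_GW5074, 98 of the 171 UMIs lay in 1 cell, and in KO_DMSO 84 of 170 lay in the interferon cell. Without the highest cell of each library the chemokine sums were 2203, 3217 and 5093 CPM. NF-kB targets and cytokines summed to 1286, 1580 and 3688 CPM, and to 1216, 1141 and 1718 CPM without the highest cell of each library for that list. Interleukin 1 and inflammasome genes summed to 1606, 1903 and 1528. MHC class II genes summed to 6788, 9012 and 11855 CPM, but Ctss was 45.2%, 84.5% and 65.8% of the sum, and H2-Aa itself had 120, 2 and 14 UMIs. The remaining lists were close between libraries or thin: arginine and polyamine genes at 1782, 1221 and 2213 CPM, eicosanoid genes at 2296, 1580 and 1844, glycolysis and hypoxia genes at 2999, 3878 and 3267, heat shock genes at 2823, 3806 and 4215, and cycling genes at 1129, 718 and 1633, most of them H2afz in WT_DMSO and WT_GW5074.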

How the data were processed

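Sorted lavage cells of 3 pooled groups, 1 library each, were taken as the UMI counts per gene and cell that the authors deposited, made with Cell Ranger 2.1.1 on mm10 per the submitters' processing notes. The labels name both a SeekOne chip and 10× Genomics. Each library had 11678 to 17809 barcodes, 34859676 to 45462817 UMIs and 32286 genes, and every barcode had at least 500 UMIs. No columns were left unused (0).

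Python 3.11.15, numpy 2.4.6, scipy 1.17.1, pandas 2.3.3 and matplotlib 3.10.9 were used. Positions come from GENCODE M21, which matched 99.6% of gene identifiers. Kept cells showed 200 genes or more, with mitochondrial UMIs up to 20%. Doublets were neither called nor removed. UMIs were summed over the members of a library and scaled to a total of 1000000 (CPM). Levels have exact Poisson intervals, ratios exact conditional binomial intervals and shares exact Clopper-Pearson intervals, at 95%. Genes with at least 20 expected UMIs in the smaller sum were compared and called at 2-fold, and genes of the rule were not compared. Where a sum held 0 UMIs, 3 UMIs took its place and the fold is a bound. No test across samples was possible with 1 library per group. The comparison was tested on simulated sums with known changes and counting error only. These sums had no spread between cells, so they cannot check the calls or intervals against that spread. Other cells were gated by markers, the neutrophil gate on Csf3r, Cxcr2, Retnlg, Hdc, Il1r2 and G0s2.

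Named were the marker genes, the 12 highest and 12 lowest GW5074 ratios, the 8 highest and 8 lowest knockout ratios, the top 15 over C1q macrophages, and members of the 34 gene lists, leaving out mitochondrial, ribosomal, predicted and similar genes. Some genes that the rule would name are not reported here. The members and lists were chosen with earlier results of these data known. Alternatives changed the cell filter, the rule, thinning to 1000 UMIs, the scaling, the count minimum and the fold. Thinning left out cells with fewer than 1000 UMIs, here and where shares of cells with a UMI are given after thinning. Those that dropped the minimum on the sum, required Ly6c2 or Plac8, or left out the 3 deepest members were chosen after seeing the data.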

Additional observations from a re-analysis of the deposited data

How the results depend on the processing

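No paired analysis was possible because each group is 1 library. The WT_DMSO share of 0.349% became 0.208% without members that had neutrophil transcripts, 0.223% with a Ly6c2 or Plac8 UMI required, 0.0803% after thinning, 1.66% with any Vcan UMI and 1.06% with both. WT_GW5074 became 0.292% with any Vcan UMI and 0.279% with thinning as well. KO_DMSO became 0.0187% after thinning, 0.301% with any Vcan UMI and 0.272% with both. The log2 share ratio for GW5074 was -0.49 after thinning.

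Genes past 2-fold with GW5074 (21) became 8 with 2 Vcan UMIs required, 12 with no C1q UMI, 8 without the 10% deepest members, 73 with any Vcan UMI, 80 with thinning as well, 6 without the 3 deepest members, 11 at 50 expected UMIs, 160 at 5 and 45 at 1.5-fold. In the knockout 24 became 1 after thinning (7 genes compared), 84 with any Vcan UMI, 77 with thinning as well, 10 without the 3 deepest members, 7 at 50 expected UMIs, 158 at 5 and 54 at 1.5-fold. By mean CPM per cell, 10 of 17 calls with GW5074 and 15 of 20 in the knockout were higher. In the knockout, 17 of 22 were higher by median ratio scaling and 10 of 24 with mitochondrial, ribosomal, S100a8 and S100a9 UMIs out of the total.

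Reversed log2 ratios with GW5074 were, with 2 Vcan UMIs required, Lgals1 -0.073, Ccl6 -0.13, Fth1 -0.21, Ftl1 -0.69 and Spp1 -0.022; with no C1q UMI, Ftl1 -0.37 and Spp1 -0.049; without the 10% deepest members, Lgals1 -0.19, Wfdc17 -0.26, Ftl1 -0.41 and Spp1 -0.0016; with any Vcan UMI after thinning, Thbs1 -1.27; and without the 3 deepest members, Wfdc17 -0.89, Apoe -0.40, Fth1 -0.094, Ftl1 -0.77, Ctsb -0.11 and Spp1 -1.15. In the knockout they were Thbs1 -0.41 with no C1q UMI, -0.50 with any Vcan UMI and -1.14 after thinning as well, where Ifitm3 was -0.65. Thinning under the full rule gave S100a6 0.13, Ctsd -2.07 and B2m -0.96, and leaving out the 3 deepest members gave Ctsd -0.80. The cause was not tested. Of the other ratios of single genes, 806 planned and 303 added ones moved within the counting interval, and 111 and 107 moved beyond it. Reversals are listed only for genes at least 2-fold apart in the main comparison. Smaller ratios could change sign as well and are not listed, such as Cd74 with GW5074, from -0.89 to 0.36 at its highest. The knockout sums come from 7 members.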
